A study of Mus musculus with 12 samples.

Results

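RNA sequencing of whole lung was compared between C57BL/6NCr mice, of a C57BL/6 substrain, at 30 and at 20 months of age. The comparison took the 3 libraries labelled 30M and the 3 labelled 20M, which are 6 of the 12 libraries of a series that also sampled mice at 6 and 12 months (6M and 12M). No treatment, mutation or sex is named in the labels, and the groups differ by age alone as labelled. Libraries are written by age and replicate number (20M_213, 20M_221 and 20M_222, then 30M_216, 30M_218 and 30M_220). Whether every replicate number stands for its own mouse is not in the labels. The p-values therefore cover the spread among libraries only, which may be technical.

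The lung holds a large share of the body's capillary blood beside its own epithelium, and several kinds of leukocyte. Platelets, shed by megakaryocytes, which are also found in lung, carry transcripts of chemokines such as Ppbp and Pf4 and of adhesion receptors. Interstitial macrophages lie in the tissue between air spaces and make the C1q chains that start the classical complement pathway. The guanylate-binding proteins and the immunity-related GTPases are interferon-inducible proteins that act against microbes inside cells.

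Total counts ran from 12152066 to 15058628 per library. Libraries of the same age correlated across genes at r = 0.954 to 0.968, and pairs from different ages at 0.928 to 0.973. Relative to the 6M mean, expression followed the GC content of genes in 20M_221, 20M_222 and 30M_220 (Spearman rho 0.358, 0.465 and 0.328 across genes, as a description of each library) and not in 20M_213, 30M_216 or 30M_218 (-0.00453 to 0.0518). Of the 6M and 12M libraries, 12M_208 was highest (0.229), and it stayed in the fit that left out 20M_221, 20M_222 and 30M_220. The library 20M_222 also held skeletal muscle transcripts. The summed level of 10 muscle genes was 2866 CPM there (counts scaled to a library of 1e+06) and 49.8 to 109 CPM in the other 5 libraries, and the muscle actin Acta1 stood at 1039 CPM against at most 2.13. Genes of stratified squamous epithelium likewise summed to 462 CPM in 20M_222 and to 16.6 to 33.8 CPM elsewhere. Lung markers were present, as 15 of 15 alveolar type 2 genes and 14 of 14 alveolar type 1 genes passed the filter on low counts and 0 of them were called.

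At 30M, 39 genes were higher than at 20M and 0 were lower, among 18407 tested. A gene is called here when its adjusted p in the quasi-likelihood test of edgeR is under 0.05, which was so for 0.212% of all tested genes. At an unadjusted p under 0.05, 945 genes (5.13%) were higher and 691 (3.75%) lower. All 39 were protein-coding, and in all 39 the 3 libraries of 30M lay above the 3 of 20M, as they did for 1047 of all tested genes (5.69%). The rise exceeded 2-fold in 35 of them, with a median log2 fold change of 1.502 and a range of 0.82 to 5.76. The adjusted p lay between 0.0169 and 0.0494, all close to the threshold, and the lowest adjusted p of any lower gene was 0.0755. On the log2 scale, the median of the 39 lay above the 20M mean by 1.60 in 30M_216, by 1.73 in 30M_218 and by 1.42 in 30M_220, and it was -0.185 to 0.166 in the 20M libraries. The last of the 30M libraries, with the GC trend, was the lowest of its age for 26 of the 39.

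The count of calls depended on single libraries. In edgeR, 0 genes were called without 20M_221, without 30M_216 or without 30M_218, 3 without 20M_222, 40 without 20M_213 and 78 without 30M_220. No gene was called from the 6 libraries alone (lowest adjusted p 0.0637). Leaving out all 3 libraries with a GC trend leaves only 20M_213 at 20M, so the number of calls in that fit is not compared. With the GC trend removed in the fit, 7 interstitial macrophage, 3 platelet and 4 interferon-stimulated genes of the lists below were called. With a term for the 3 libraries these were 4, 4 and 1. Leaving out a library of 6M or 12M, which enters the fit through the shared spread, the scaling and the count filter, left 9 to 29 calls. All 39 kept their direction under each of 21 alternatives, and their median log2 fold change stayed between 1.43 and 1.62. Single genes moved further, with Vsig4 between 4.34 and 6.64, Itgad between 2.71 and 3.94, Ms4a6d between 2.08 and 3.15 and Vcan between 1.59 and 2.89.

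**Figure D1:**
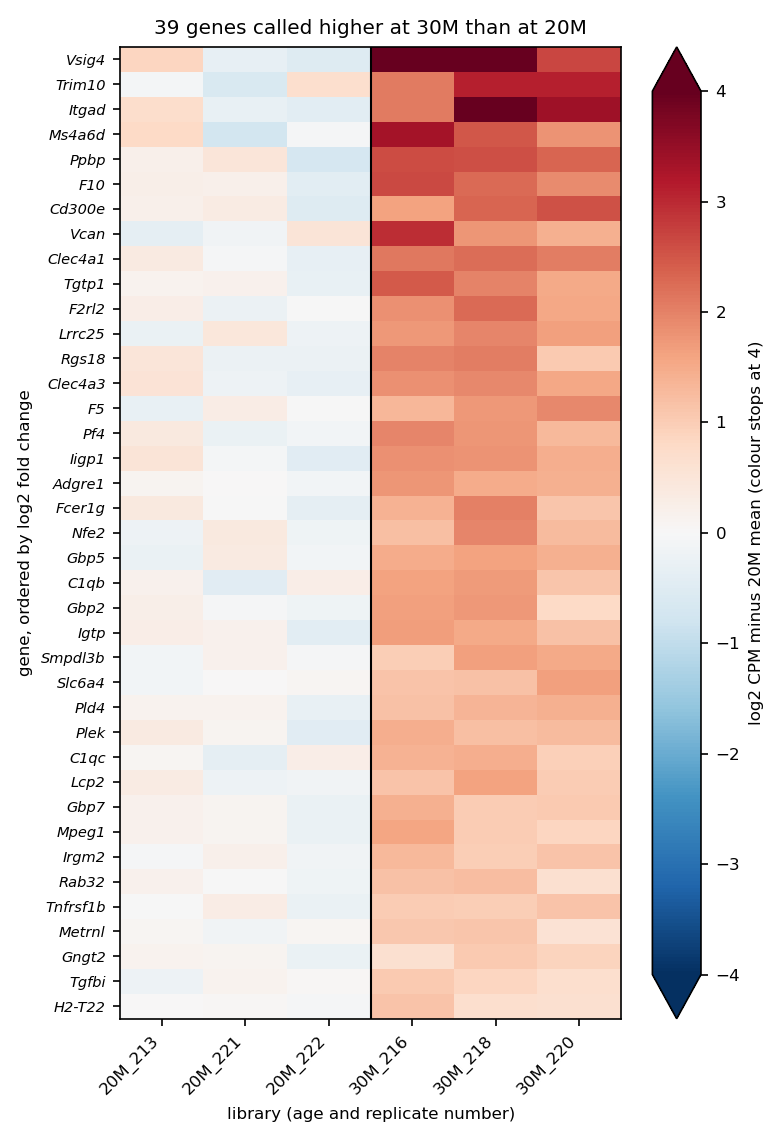
Level of the 39 called genes (rows) in the 6 libraries (columns), as log2 CPM minus the 20M mean, with blue below and red above that mean. The 30M columns are red for all 39 genes, and Vsig4, Trim10 and Itgad stand at the top with log2 fold changes of 5.76, 3.44 and 3.41.

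**Figure D2:**
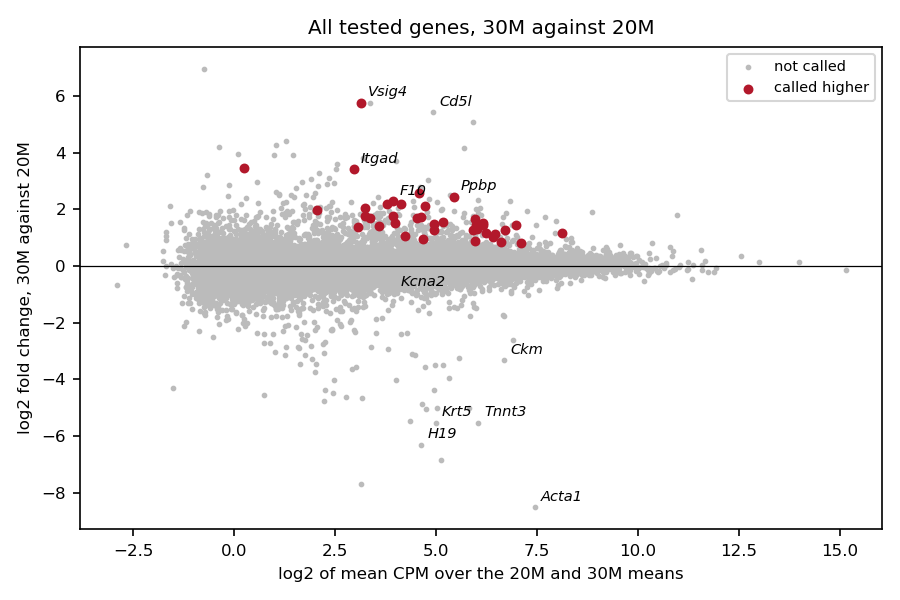
Log2 fold change of 30M against 20M (vertical axis) by the log2 mean level in CPM (horizontal axis) for the 18407 tested genes, with the 39 called genes in red. Acta1 at -8.51 is the lowest point and was not called, its high level at 20M being that of 20M_222.

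Of the 39 genes, 10 were grouped by known role under platelets, blood clotting or the erythroid line. Which cells of the lung their transcripts came from was not tested. Ppbp, the precursor of a platelet chemokine (ENSMUSG00000029372, chromosome 5, 90768518 to 90770063), stood at 14.5, 17.8 and 7.97 CPM in the 20M libraries and at 78.8, 77.2 and 64.98 CPM in the 30M libraries. The lowest 30M library lay far above the highest of 20M. Its mean was 13.4 ± 4.98 CPM (SD, n = 3) at 20M and 73.6 ± 7.55 CPM at 30M, a rise of 2.45 on the log2 scale (SE 0.31, edgeR adjusted p = 0.0185). Pf4, platelet factor 4, which lies beside it on the chromosome (90772435 to 90773383), stood at 14.01, 8.81 and 9.97 CPM and then at 41.9, 36.7 and 26.6 CPM. It rose by 1.68 on the log2 scale (SE 0.25, adjusted p = 0.0237). Pf4 is also made by interstitial macrophages and was on that list too.

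F10, coagulation factor X (ENSMUSG00000031444, chromosome 8, 13037308 to 13056676), had the smallest adjusted p of all genes. It stood at 5.93, 5.81 and 3.69 CPM at 20M and at 32.1, 24.5 and 19.3 CPM at 30M, with no overlap (log2 fold change 2.29, SE 0.27, adjusted p = 0.0169). F5, coagulation factor V, which works with factor X on the platelet surface, rose from 4.88 ± 1.05 to 15.7 ± 3.15 CPM (adjusted p = 0.0328). F2rl2, a thrombin receptor of the protease-activated family, rose from 1.67 ± 0.315 to 6.62 ± 1.75 CPM (adjusted p = 0.0309). The others of these genes were Plek, the platelet protein kinase C substrate pleckstrin, Rgs18, a regulator of G protein signals in platelets, the serotonin transporter Slc6a4, and Nfe2, a transcription factor of platelet formation. They rose by 1.27 to 1.75 on the log2 scale. Trim10, a gene of erythroid maturation, had 2, 1 and 5 counts at 20M and 15, 32 and 41 at 30M. Its log2 fold change of 3.44 (SE 0.60, adjusted p = 0.0378) rests on those few counts.

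The list of platelet genes differed in the same direction beyond the 2 called members, Ppbp and Pf4. Of 13 listed genes 12 were tested, all 12 had an unadjusted p under 0.05, and in 11 the libraries did not overlap. The list's median log2 fold change was 1.76, beside -0.0138 over all tested genes. Of all tested genes 0.212% were called higher, 5.13% were higher at an unadjusted p under 0.05 and 5.69% were higher without overlap. These shares stand beside the lists below as well. Gp9, a subunit of the receptor for von Willebrand factor, stood at 2.08, 2.5004 and 1.99 CPM and then at 7.82, 7.05 and 9.83 CPM (adjusted p = 0.0889). Itga2b, the platelet integrin chain, stood at 12.2, 21.0 and 17.9 CPM and then at 31.3, 48.9 and 63.9 CPM (adjusted p = 0.0893). The summed level of the list was 103 to 129 CPM in the 20M libraries and 300 to 345 CPM in the 30M libraries. In whole tissue, more cells of a type and more RNA per cell cannot be told apart.

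Haemoglobin and erythroid genes differed in the same direction, but 0 of 10 tested were called (9 higher at an unadjusted p under 0.05, and 8 without overlap). Their median log2 fold change was 1.83. Beta-globin Hbb-bs stood at 317, 150 and 126 CPM at 20M and at 815, 796 and 599 CPM at 30M (adjusted p = 0.185). Alpha-globin Hba-a1 stood at 104, 98.7 and 81.8 CPM and then at 271, 297 and 381 CPM (adjusted p = 0.185). Both globins have near-identical copies whose counts are uncertain. The 20M libraries were low for these genes: Hbb-bs was at 540.3 ± 200.2 CPM at 6M and 848 ± 529 CPM at 12M, beside 198 ± 104 CPM at 20M and 737 ± 119.9 CPM at 30M. Platelet genes had no such low at 20M, with Ppbp at 15.95 ± 1.88 and 18.6 ± 8.17 CPM at 6M and 12M. The part of these blood transcripts in the changes of leukocyte genes below was not tested.

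**Figure D3:**
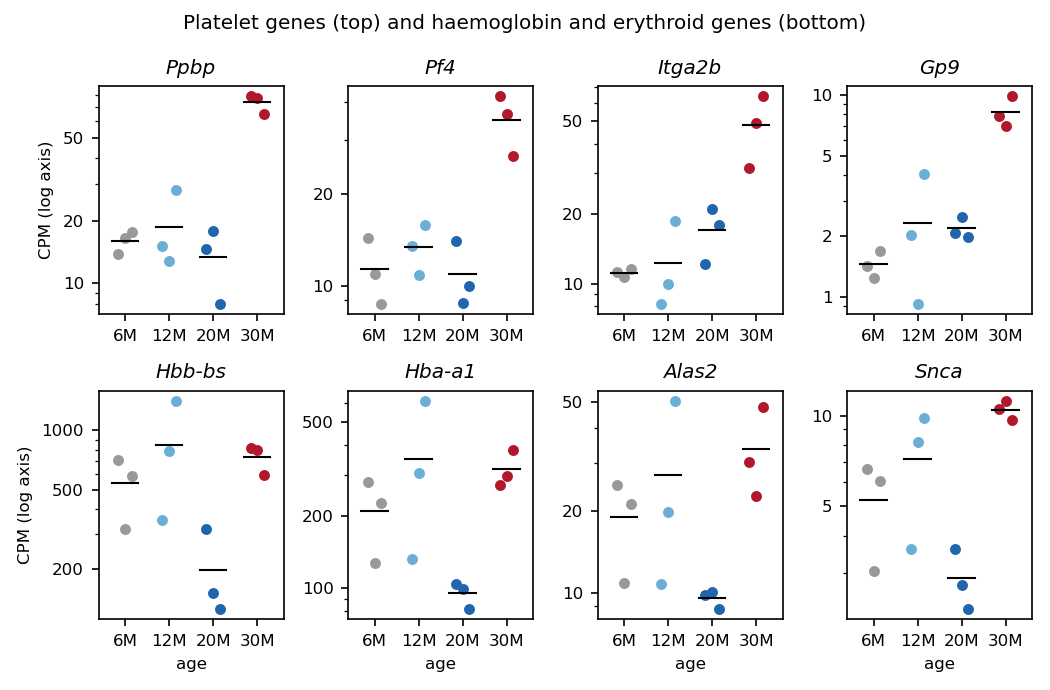
Level in CPM (log axis) of 4 platelet genes (top) and 4 haemoglobin or erythroid genes (bottom) by age, with 1 point a library and a line at the mean of 3. The platelet genes lie at a similar level at 6M, 12M and 20M and higher at 30M, while Hbb-bs falls to a mean of 198 CPM at 20M and lies at 737 CPM at 30M, near its 6M and 12M means.

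A further 15 called genes are known from macrophages, monocytes or complement, among them the 3 widest rises by fold that are not erythroid. C1qb, a chain of the complement protein C1q (ENSMUSG00000036905, chromosome 4, 136880129 to 136886187), stood at 41.5, 27.1 and 44.8 CPM at 20M and at 113, 120.0 and 79.98 CPM at 30M (log2 fold change 1.46, SE 0.20, adjusted p = 0.0185). C1qc, a neighbouring chain gene, rose from 35.1 ± 7.41 to 84.4 ± 15.6 CPM (adjusted p = 0.0331). The remaining chain gene, C1qa, was not called, with 44.9 ± 8.84 CPM at 20M and 96.1 ± 15.2 CPM at 30M (adjusted p = 0.0649). Adgre1, which encodes the macrophage antigen F4/80 (ENSMUSG00000004730, chromosome 17, 57358691 to 57483527), stood at 19.5, 18.6 and 16.7 CPM and then at 61.9, 51.2 and 49.3 CPM (log2 fold change 1.57, SE 0.21, adjusted p = 0.0185). These were tight groups with a wide gap between them.

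Vsig4, the complement receptor of resident macrophages, spread widely at 30M. It had 8, 3 and 2 counts at 20M and 485, 126 and 40 at 30M, or 39.1, 10.3 and 2.59 CPM at 30M (log2 fold change 5.76, SE 1.01, adjusted p = 0.0494). Itgad, the integrin chain alpha D, stood at 2.15, 1.0002 and 0.886 CPM and then at 5.81, 22.4 and 14.6 CPM (log2 fold change 3.41, SE 0.60, adjusted p = 0.041). Ms4a6d, a membrane gene of myeloid cells, stood at 11.0, 3.75 and 6.05 CPM and then at 64.4, 35.7 and 22.4 CPM (log2 fold change 2.56, adjusted p = 0.0331). In Vsig4 and Ms4a6d the order 30M_216, 30M_218, 30M_220 ran from high to low, and in Itgad 30M_218 was highest.

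Monocyte genes were among the same 15. Cd300e, an activating receptor of monocytes, stood at 6.93, 7.63 and 4.21 CPM at 20M and at 18.9, 31.1 and 36.1 CPM at 30M (log2 fold change 2.20, SE 0.31, adjusted p = 0.0185). Vcan, the proteoglycan versican, which monocytes also make, rose from 4.91 ± 1.65 to 22.6 ± 13.6 CPM, with 38.1 CPM in 30M_216 and 13.1 CPM in 30M_220. Clec4a1 and Clec4a3, C-type lectin receptors of myeloid cells that lie close together on chromosome 6 and resemble each other, both rose. Clec4a1 went from 9.89 ± 2.39 to 43.02 ± 3.32 CPM and Clec4a3 from 11.4 ± 3.99 to 37.97 ± 5.04 CPM. The other 5 genes of this kind rose by 1.17 to 1.77 on the log2 scale. They were Lrrc25, a leucine-rich repeat membrane protein, Fcer1g, the signalling chain of Fc receptors, Pld4, an endolysosomal nuclease, Lcp2, an adaptor of receptor signals, and Mpeg1, a pore-forming protein of macrophages. Mpeg1 stood at 188, 179.7 and 139.6 CPM at 20M and at 505, 336 and 303 CPM at 30M.

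Lists of these cell types gave the counts beyond the called genes. For interstitial macrophages 5 of 15 genes were called, 10 were higher at an unadjusted p under 0.05 and 9 had no overlap, with a median of 1.10. The shares over all tested genes were 0.212%, 5.13% and 5.69%. Apoe and Mrc1, which the same macrophages express, had log2 fold changes of 0.12 and 0.38 with overlapping libraries. For resident macrophages of spleen and liver 1 of 11 was called, Vsig4, and the median was 1.66. Cd5l, a secreted protein of such macrophages, stood at 3.23, 0.313 and 0.665 CPM and then at 84.6, 82.8 and 9.57 CPM and was not called (adjusted p = 0.111). For monocytes 1 of 12 was called, Cd300e, and the median was 1.49. Ly6c2 and Ccr2, of classical monocytes, stood at 226, 68.6 and 32.1 CPM and at 213.04, 179.9 and 68.5 CPM in the 30M libraries, against 18.4 to 41.3 and 25.8 to 65.7 CPM at 20M. Alveolar macrophage genes had a median of 0.039 with 0 of 14 called. Of these, 4 were higher and 0 lower at an unadjusted p under 0.05, and 5 had a log2 fold change below 0. Lipid-associated macrophage genes had a median of 0.21 with 0 of 13 called, 5 higher at an unadjusted p under 0.05 and 3 below 0. For complement 3 of 15 were called (C1qb, C1qc and Vsig4), with a median of 1.10. C3, the central component, was at 1659.7, 6665 and 1058 CPM in the 30M libraries, so its high mean at 30M came from 30M_218.

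**Figure D4:**
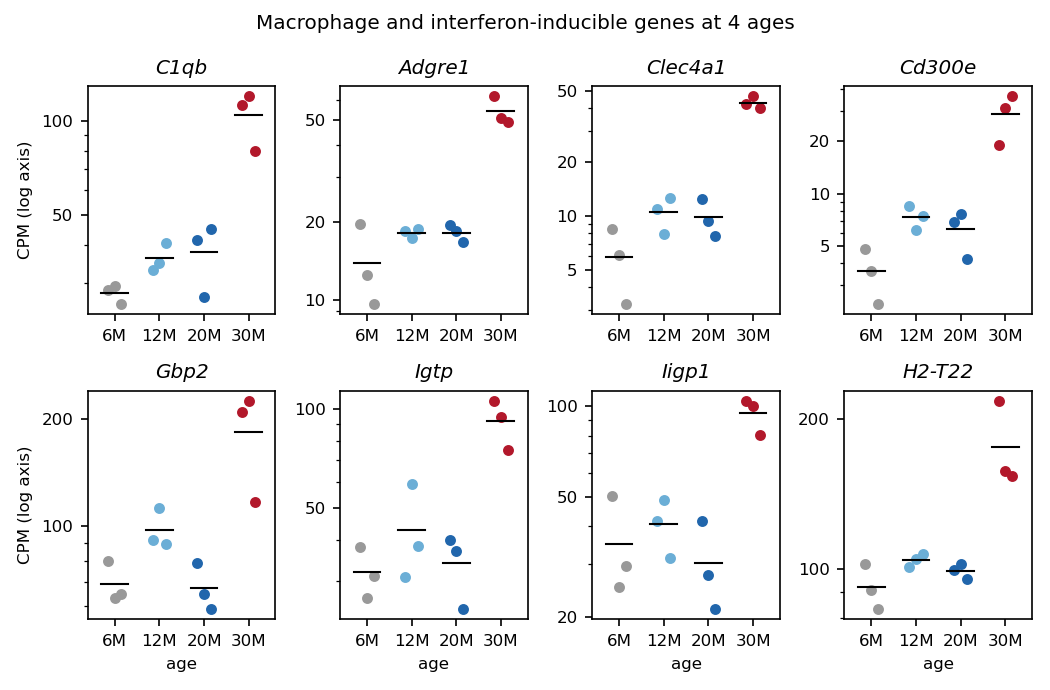
Level in CPM (log axis) of 4 macrophage or monocyte genes (top) and 4 interferon-inducible genes (bottom) by age, with 1 point a library and a line at the mean of 3. In every panel the 3 points of 30M lie above the 3 of 20M, and those of Gbp2 run from 117 to 224 CPM at 30M.

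The remaining group held 8 interferon-inducible genes. Stretches before the transcription start of 5 of them are shown because these genes moved together and share a short sequence. The stretches come from RefSeq (GRCm38.p6), begin 250 bases before the start and stop where an annotated exon begins. They are Gbp5 (chr3:142496684-142496899, plus strand), Gbp7 (chr3:142530086-142530335, plus strand), Igtp (chr11:58199306-58199555, plus strand), Irgm2 (chr11:58214727-58214976, plus strand) and Tgtp1 (chr11:48992259-48992496, minus strand). Capitals mark the core of the interferon-stimulated response element on either strand, searched as the letters GAAA followed, after any 2 bases, by GAAA again.
Gbp5: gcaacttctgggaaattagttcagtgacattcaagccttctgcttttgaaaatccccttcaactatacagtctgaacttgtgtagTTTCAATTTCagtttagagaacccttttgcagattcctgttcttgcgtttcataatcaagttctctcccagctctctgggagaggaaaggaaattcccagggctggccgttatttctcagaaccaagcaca
Gbp7: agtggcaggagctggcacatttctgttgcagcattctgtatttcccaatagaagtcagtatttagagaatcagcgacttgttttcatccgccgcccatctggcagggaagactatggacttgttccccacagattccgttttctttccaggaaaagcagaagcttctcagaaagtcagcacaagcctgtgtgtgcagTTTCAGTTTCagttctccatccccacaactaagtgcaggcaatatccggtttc
Igtp: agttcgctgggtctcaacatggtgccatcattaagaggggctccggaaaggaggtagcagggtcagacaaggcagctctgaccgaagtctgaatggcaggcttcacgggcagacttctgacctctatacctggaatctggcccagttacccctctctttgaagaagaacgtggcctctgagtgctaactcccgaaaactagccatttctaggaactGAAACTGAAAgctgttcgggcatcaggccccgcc
Irgm2: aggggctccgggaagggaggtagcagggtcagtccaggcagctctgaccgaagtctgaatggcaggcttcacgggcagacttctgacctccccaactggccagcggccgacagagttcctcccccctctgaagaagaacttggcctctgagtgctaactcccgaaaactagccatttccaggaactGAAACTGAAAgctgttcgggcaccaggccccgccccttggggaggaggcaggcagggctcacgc
Tgtp1: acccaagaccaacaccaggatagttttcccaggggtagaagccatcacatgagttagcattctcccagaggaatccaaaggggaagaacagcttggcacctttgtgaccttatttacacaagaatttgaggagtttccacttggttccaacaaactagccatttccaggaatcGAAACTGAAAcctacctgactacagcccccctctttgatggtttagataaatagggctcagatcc
The match began 165, 53, 34, 64 and 77 bases before the start in Gbp5, Gbp7, Igtp, Irgm2 and Tgtp1. A match was found in 7 of 7 of the interferon-inducible called genes with a window and in 978 of 32841 windows of all genes (2.98%). It was found in 9 of 31 called genes with a window. None of 11 complement, macrophage and monocyte genes and none of 8 platelet, clotting and erythroid genes held one. The match of Gbp2, counted among the 7, did not end before an annotated exon began, so its stretch is not shown. The genes were grouped by known role after their values were seen, so the 7 of 7 is not a test. The Igtp and Irgm2 stretches resemble each other closely. The Tgtp1 stretch holds nearly the same bases just before its match. The matches of Igtp, Irgm2 and Tgtp1 are therefore not separate observations. A match is a description of letters, not of binding.

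Gbp2, a guanylate-binding protein gene (ENSMUSG00000028270, chromosome 3, 142620602 to 142638008), stood at 78.8, 64.5 and 58.8 CPM at 20M and at 209, 224 and 117 CPM at 30M (log2 fold change 1.45, SE 0.22, adjusted p = 0.0299). Gbp5, of the same family and chromosome, was at 13.1, 20.6 and 14.8 CPM and then at 44.8, 48.5 and 42.8 CPM (adjusted p = 0.0309). Gbp7 rose from 46.1 ± 7.32 to 104 ± 16.9 CPM (adjusted p = 0.0331). In all 3 the 30M libraries lay clear of the 20M libraries, with 30M_220 the lowest of its age for Gbp2 and Gbp5.

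Tgtp1, an immunity-related GTPase with a near-identical copy, had a steeper rise, with 3.62 ± 0.647 CPM at 20M and 15.2 ± 5.02 CPM at 30M (log2 fold change 2.06, SE 0.29, adjusted p = 0.0185). Iigp1, also of that family, stood at 41.6, 27.6 and 21.3 CPM and then at 104, 101 and 80.2 CPM (adjusted p = 0.0378). Igtp and Irgm2, whose annotated spans overlap on chromosome 11 so that their counts are less certain, rose as well. Igtp went from 33.96 ± 8.12 to 92.1 ± 15.4 CPM and Irgm2 from 54.9 ± 7.38 to 121 ± 13.03 CPM. H2-T22, a class I gene of the major histocompatibility complex (MHC) with near copies, was at 99.3 ± 3.43 CPM and then at 176 ± 35.5 CPM (log2 fold change 0.82, SE 0.14, adjusted p = 0.0378).

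Among 32 interferon-stimulated genes 4 were called, all 4 being GTPase genes (Gbp2, Gbp7, Igtp and Iigp1), and 28 were not. All 32 had a positive log2 fold change (30 at an unadjusted p under 0.05), with a median of 1.39, but only 14 had no overlap between libraries. On the log2 scale, the list's median lay 1.87 above the 20M mean in 30M_216, 0.981 above it in 30M_218 and 0.346 above it in 30M_220. It was 0.437 in 20M_213, which exceeds the last of these. Without 30M_216 the median log2 fold change of the list was 0.68, with 13 genes at an unadjusted p under 0.05. Genes of antiviral effectors followed 30M_216: Isg15 stood at 87.0, 26.5 and 14.9 CPM in the 30M libraries and at 21.6, 9.81 and 7.31 CPM at 20M (adjusted p = 0.351). Irf7, a transcription factor of the interferon response, stood at 226, 59.1 and 36.8 CPM against 44.1, 27.6 and 21.0 CPM (adjusted p = 0.311).

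Genes of MHC class I presentation differed by less but evenly across libraries. Of 16 genes 1 was called, H2-T22 (0.212% of all tested genes were). At an unadjusted p under 0.05, 14 were higher (5.13% of all tested genes), and 13 had no overlap (5.69%). The median was 0.68, and per library it was 0.724, 0.649 and 0.585 in 30M_216, 30M_218 and 30M_220. Psmb8, a subunit of the immunoproteasome, stood at 86.6, 80.4 and 66.7 CPM and then at 155, 146 and 111 CPM (adjusted p = 0.0788). For MHC class II presentation 0 of 12 were called, 9 had no overlap and 3 were below 0, with a median of 0.50. Without 30M_220 that median was 0.35, with 4 genes higher and 2 lower at an unadjusted p under 0.05. Ctss, a lysosomal protease of antigen processing, stood at 199, 133 and 118 CPM and then at 433, 334 and 246 CPM (adjusted p = 0.0758).

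The last 6 called genes have no common role here. Smpdl3b, a lipid-modulating phosphodiesterase of the membrane, was at 6.49 ± 0.671 CPM and then at 17.4 ± 4.002 CPM (log2 fold change 1.42, adjusted p = 0.0378). Tnfrsf1b, a receptor of tumour necrosis factor, stood at 54.6, 67.1 and 45.3 CPM and then at 111, 109 and 121 CPM (adjusted p = 0.0309). Tgfbi, a matrix protein induced by transforming growth factor beta, rose from 69.5 ± 8.12 to 125 ± 16.5 CPM. The secreted factor Metrnl, the small GTPase Rab32 and the G protein subunit gene Gngt2 rose by 0.87 to 1.04 on the log2 scale.

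No gene passed the test in the lower direction, with 691 at an unadjusted p under 0.05 in edgeR. DESeq2 called 48 lower genes and limma voom 32. The lower genes with the smallest p and no overlap included several of motile cilia. Kcna2, a potassium channel gene, stood at 17.9, 21.8 and 22.1 CPM at 20M and at 11.5, 9.84 and 11.1 CPM at 30M (log2 fold change -0.93, SE 0.18, adjusted p = 0.0755). Ak7, an adenylate kinase of cilia, stood at 61.02, 86.6 and 60.6 CPM and then at 44.6, 34.9 and 46.0 CPM (adjusted p = 0.0908). Dnah10, a dynein heavy chain of the ciliary axoneme, stood at 50.4, 106 and 83.7 CPM and then at 42.9, 35.8 and 46.7 CPM (adjusted p = 0.133). The others by the same rule were the coiled-coil genes Ccdc180, Ccdc33 and Ccdc155, the cytochrome gene Cyp4a32, the keratin gene Krt87, Dkkl1 and the antibody segment Igkv8-30, with log2 fold changes of -0.85 to -2.80. Igkv8-30 belongs to a family of near copies and is uncertain.

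On the list of ciliated cells all 15 genes had a negative log2 fold change, 0 were called, 7 were lower at an unadjusted p under 0.05 and 3 had no overlap (5.16% of all tested genes had none in that direction). The median was -0.40. Dnah5, a further axonemal dynein, stood at 76.3, 96.02 and 71.8 CPM at 20M and at 63.2, 53.1 and 52.4 CPM at 30M (adjusted p = 0.181). At 6M it was at 76.9 ± 4.47 CPM. The summed level of the list was highest in 20M_221, at 1394 CPM, a library with a GC trend. Without 20M_221 the median was -0.32 and 2 genes had an unadjusted p under 0.05. These values were -0.49 and 9 without 20M_222, and -0.58 and 8 without 30M_216. With the GC trend removed in the fit they were -0.36 and 6, and with a term for the 3 libraries with that trend -0.43 and 10. Without all 3 of those libraries, which leaves only 20M_213 at 20M, the median was -0.32. B cell genes had a median of -0.68 and 0 of 15 called. They were low in 30M_216 and 30M_218 (-1.64 and -1.67 over the 20M mean) and not in 30M_220 (0.429), without which the median was -1.69. It was -0.36 without 30M_216, -0.35 without 30M_218 and -0.41 without 20M_221. Pax5, a transcription factor of B cells, stood at 7.42, 8.28 and 33.0 CPM in those libraries and at 40.0, 47.9 and 19.9 CPM at 20M.

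Other immune lists held no called gene. In the T cell list 19 of 19 and in the cytotoxic lymphocyte list 18 of 18 genes had positive log2 fold changes, with medians of 0.52 and 0.77. Without the 3 libraries with a GC trend, which leaves only 20M_213 at 20M, the T cell median was -0.02 and the cytotoxic median 0.24. In 20M_213 the list medians lay 0.389 and 0.922 above the 20M mean, the highest of that age. With the GC trend removed in the fit the T cell and cytotoxic medians were 0.52 and 0.84. With a term for the 3 libraries they were 0.48 and 0.72. With 1 library left out the T cell median ran from 0.30 to 0.82. The cytotoxic median then ran from 0.61 without 20M_222 to 1.26 without 20M_213. Havcr2, an inhibitory receptor of T cells and macrophages, stood at 10.1, 6.44 and 6.35 CPM and then at 13.5, 13.4 and 15.4 CPM (adjusted p = 0.109). Neutrophil genes had a median of 0.89, with Camp, a granule peptide gene, at 13.6 CPM in 30M_218 and at most 1.29 CPM in the other 5 libraries. Saa3, an acute-phase gene, stood at 7.93, 1.25 and 1.33 CPM and then at 16.9, 294 and 37.4 CPM (adjusted p = 0.14). Cxcl13, which attracts B cells, stood at 11.1, 1.88 and 8.79 CPM and then at 37.7, 22.6 and 45.97 CPM (adjusted p = 0.178). Plasma cell genes had a median of 0.009.

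No gene was called on the lists of structural lung cells. Alveolar type 2 and type 1 cells, airway secretory cells and general capillaries had medians of 0.028, -0.087, -0.13 and 0.058, and the sign of each changed when certain single libraries were left out. Fibroblast genes and collagens had medians of -0.21 and -0.26, and 19 of 20 collagen genes were below 0. Collagens summed highest in 20M_222, at 3966 CPM, and without that library their median turned to 0.01 and that of fibroblasts was -0.07. Without the 3 libraries with a GC trend the collagen median was 0.05. Aerocyte capillaries, the gas-exchange capillaries, had a median of -0.35 with 8 of 10 genes below 0, and smooth muscle and pericytes had -0.30 with 13 of 15 below 0. These medians were -0.73 and -0.89 without 30M_220, and -0.14 and -0.11 without 30M_216. Mesothelial genes summed to 1943 CPM in 30M_218 and to 462 to 962 CPM in the other 5 libraries, with a median of 1.06 over 9 genes that fell to 0.33 without 30M_218. The cell cycle inhibitors Cdkn1a and Cdkn2a were not called, with log2 fold changes of -0.88 and 0.57 (adjusted p = 0.736 and 0.822). Cdkn2a stood below 1 CPM in 5 of 6 libraries.

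**Figure D5:**
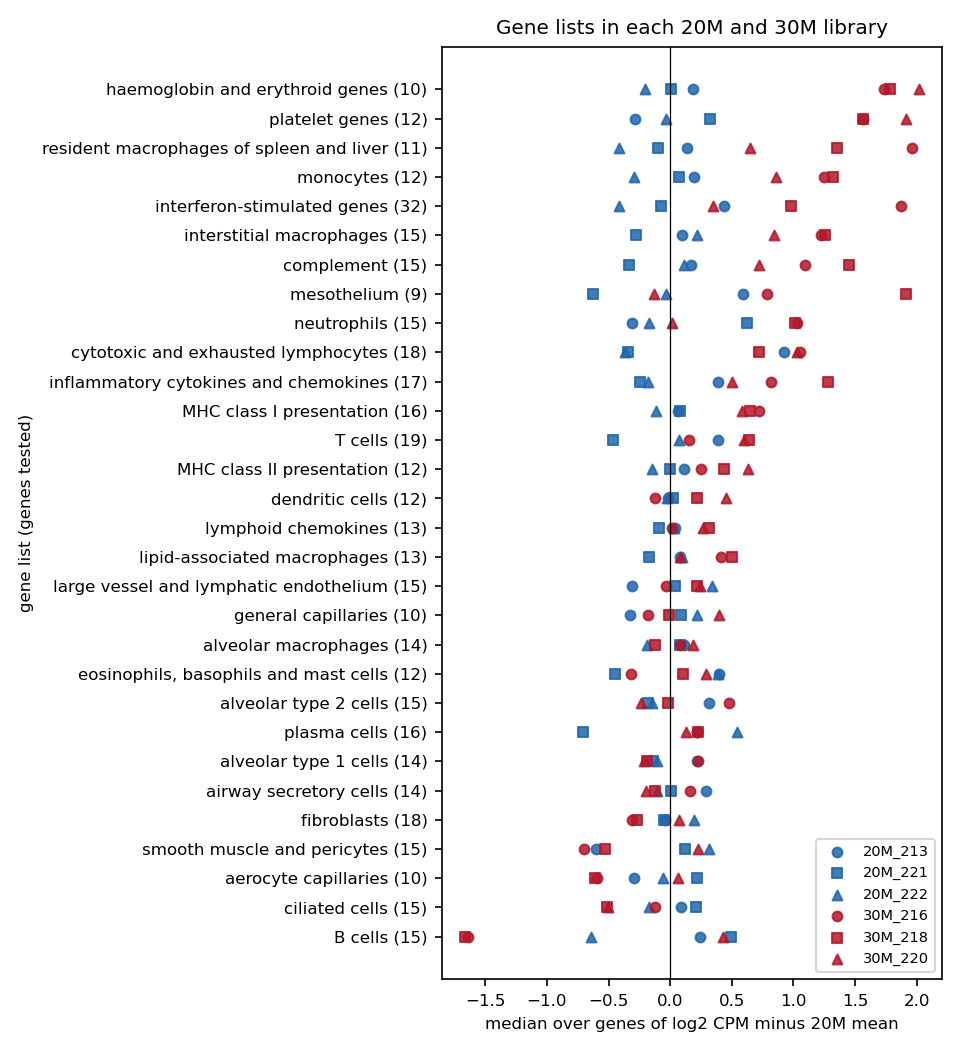
Median over the genes of each list of log2 CPM minus the 20M mean (horizontal axis), with 1 point a library, blue for 20M and red for 30M. Red points lie apart to the right for the platelet, erythroid, interstitial macrophage, resident macrophage and monocyte lists but not for alveolar or lipid-associated macrophages, while 1 red point of the interferon-stimulated list at 0.346 lies left of the highest blue one at 0.437, and the B cell points of 30M split between -1.67 and 0.429.

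The late step was set against an early step that shares no library with it, that from 6M to 12M. A test of the difference of the steps called 0 genes in edgeR, with 404 (2.19%) above and 428 (2.33%) below at an unadjusted p under 0.05. DESeq2 called 11. For the 39 genes the log2 fold change of 12M against 6M had a median of 0.25, with 35 above 0 and 4 below. The difference of the steps was positive for all 39, with a median of 1.16, and these genes were chosen on one of the terms. By the smallest p, the differences named were those of F10 (2.29, SE 0.37, adjusted p = 0.671), Trim10, Ppbp, Ms4a6d and Rgs18 above 0, and those of Igkv8-30, Ighv8-8, Dkkl1, Arrdc3 and Kcna2 below. Arrdc3, an arrestin-domain gene, was at 153 and 249 CPM at 6M and 12M and at 145 and 121 CPM at 20M and 30M. The same fit called 3 genes (0.0163%) for 20M against 6M, 0 for 20M against 12M and 0 for 12M against 6M, whereas 361 (1.96%) were called for 30M against 6M and 131 (0.712%) for 30M against 12M. Those last comparisons share the 30M libraries with the one described here.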

How the data were processed

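RNA was extracted from lung with ISOGEN II, selected by poly-A and sequenced in paired ends on an Illumina platform, per the labels' protocols. The authors deposited raw counts per gene (55487 genes) without normalization. Per the submitters' processing notes, reads passed through Trimmomatic 0.38, FastQC 0.11.7, HISAT2 2.1.0 and featureCounts on GRCm38 (mm10). The annotation release was not given in the sources used here, nor was the strand setting. Counts of overlapping, antisense and near-identical genes are therefore uncertain. With the totals above, 1 CPM is more than 10 counts per library.

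Counts of all 12 libraries were fitted together with edgeR 4.0.16 in R 4.3.3 (quasi-likelihood, robust, TMM scaling, filterByExpr by age), with Benjamini-Hochberg adjustment over 18407 genes. SE is the log2 fold change divided by the root of F. Levels are TMM-scaled CPM, and list medians per library use log2 CPM with a prior count of 2. The pipeline was tested on simulated data. Promoter windows were searched on both strands. GC content came from the longest GENCODE M21 transcript.

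Named were the 10 largest rises among called genes at 1 CPM or more without overlap, the 10 lower genes of smallest p, 5 each way for the difference of steps, and up to 4 per list. Cdkn1a and Cdkn2a were always named. The other called genes, their roles, and any further list member were chosen after their values were seen, and the comparison and the 53 lists with earlier results of these data known. Sex-linked genes were tested and not called. Alternatives were DESeq2 1.42.0, limma 3.58.1 voom, other scaling and filters, the 6 libraries alone, GC corrections and each library left out.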

Additional observations from a re-analysis of the deposited data

How the results depend on the processing

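The 39 calls were the least stable result. DESeq2 called 319 genes (271 higher, 48 lower), limma voom with quality weights 211 (179 and 32), and edgeR without a count filter 77 (74 and 3). With only the 6 libraries of 20M and 30M, 0 were called. The fit without the 3 GC libraries leaves only 20M_213 at 20M, so its number of calls is not compared. Leaving out 1 library gave 0 to 78 calls, 0 to 75 higher and 0 to 3 lower. The difference of the late and early steps had 11 calls in DESeq2 and 0 to 1 with 1 library left out, the 1 being without 12M_207. The leave-out fits of 6M and 12M libraries were chosen after seeing the data. The cause of these differences was not tested. Of 819 values of the 39 genes over alternatives, 395 lost the call and 0 changed direction. The platelet median was 1.45 in voom, and 1.498 to 1.83 with 1 library left out. The monocyte median was 1.19 without the 3 GC libraries and 1.12 to 1.59 with 1 library left out, the erythroid median 1.44 without the 3 GC libraries, and the MHC class I median 0.604 to 0.760 with 1 library left out. The interferon-stimulated median was 0.68 to 1.61 with 1 library left out. The log2 fold change of Acta1 was 0.641 without the 3 GC libraries and -10.41 to 2.33 with 1 library left out. No paired analysis was possible because the ages share no replicate number.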
